A study of Caenorhabditis elegans with 7 samples.

Results

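T16G1.7, T16G1.6, T16G1.5 and T16G1.4 are 4 genes that follow one another on chromosome V of Caenorhabditis elegans, in that order, in the WBcel235 gene table. They were picked by name as neighbours, because large heat-linked falls of T16G1.6 and T16G1.7 had been seen earlier on these arrays. Each gene had 1 named probe, so the 4 genes stand beside 7534 genes with a named probe on the array. T16G1.7, T16G1.6 and T16G1.4 had a value on all 7 arrays, and T16G1.5 had one on 4. Since falls with heating led to the choice of the cluster, levels and differences from 0 h are given as a description, with no test.

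The samples were total RNA of adult animals of strain CF512, which is sterile at 25 °C, the temperature at which they had been raised. They were then held at 30 °C for 2, 4, 6, 8, 10 or 12 h, and the baseline was taken at 0 h. Each time had 1 two-colour array, on which the worm RNA was set against a common reference RNA named HS1. No time had a replicate, so no value carries an error of its own, and the heated arrays differ in time as well as in whatever else differs between arrays. In whole animals, fewer cells of a type and less RNA per cell cannot be told apart. Of 63 marker genes of 8 tissues and cell types, 0 had a named probe, so the makeup of the animals was not checked.

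CF512 is known to carry temperature-sensitive mutations in fer-15 and fem-1, both genes needed for sperm, and its hermaphrodites lay no fertile eggs at the raised temperature. The proteins of T16G1.4 to T16G1.7 are predicted members of a CHK kinase-like family, named for a domain resembling choline and aminoglycoside kinases. In insects, relatives of this family include ecdysteroid kinases, which add a phosphate to the moulting hormone. No substrate of the worm proteins is assumed here. Such tandem copies arise by gene duplication, and probes of tandem copies can bind each other's transcripts. The probe sequences were not analysed here, so the part of such binding was not tested.

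All values below are log2 ratios to the reference after each array was centred on its median. An array gave values for 16143 to 16972 probes. The deposited direction of the ratio is not stated. It was taken as worm RNA over reference from F44E5.4 and F44E5.5, a near-identical pair of HSP70 chaperone genes induced by heat. Their 0 h ratios were at the lowest value the file allows (-4.98 after centring), and both were higher on 6 of 6 heated arrays. With the sign turned, every statement of higher or lower below changes places. Log base 2 is likewise an assumption, made from how far the values range, and folds hold only if it is right.

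Before heating, all 4 genes were among the features with the highest ratios. At 0 h the ratio was 2.07 for T16G1.7, 2.04 for T16G1.6, 1.84 for T16G1.5 and 1.85 for T16G1.4. These were the 69th, 70th, 110th and 107th highest of 16690 features. The members lay within 0.24 of each other at this time. For scale, probes of the same gene differed by a median of 0.50 in their change from 0 h, over 246 genes with several probes, and the 95th percentile was 1.79. Those probes may differ in sequence, so this spread holds more than the error of a spot.

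On every heated array with a value, the ratio of every member was below its own 0 h ratio. This holds for 21 of 21 heated values, and 25 of the 28 possible values of the cluster were present. The difference from 0 h lay between -5.15 (T16G1.7 at 10 h) and -1.83 (T16G1.4 at 4 h). Of the 13369 features measured on all arrays, 21.4% were below 0 h on all 6 heated arrays, and 2.20% were lower by 1 log2 unit or more on all 6. T16G1.7, T16G1.6 and T16G1.4 were in both sets, and nothing is read from this because falls with heating led to the choice of the cluster.

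**Figure D1:**
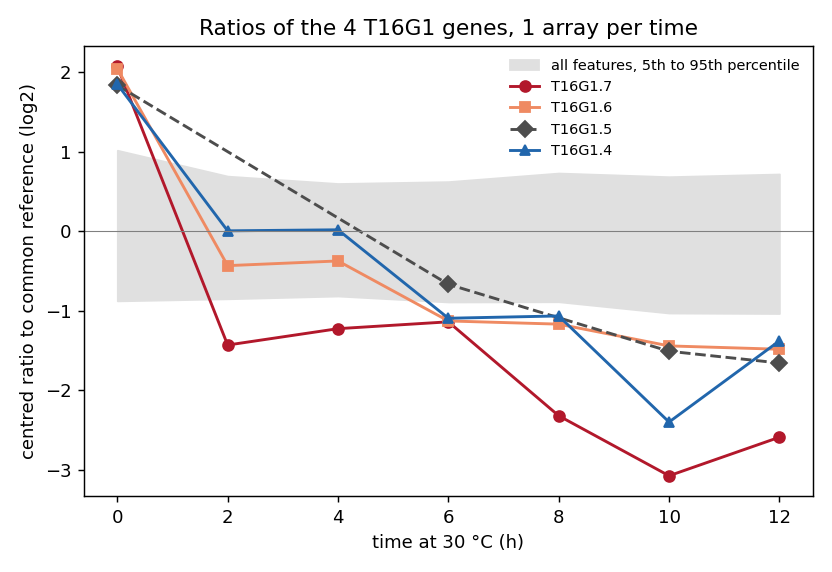
Centred log2 ratio to the common reference (vertical axis) against hours at 30 °C (horizontal axis) for the 4 genes, 1 array per time, with the 5th to 95th percentile of all features shaded. The genes start together between 1.84 and 2.07 at 0 h, T16G1.7 is the lowest at every heated time, and the dashed line of T16G1.5 passes over 2, 4 and 8 h, where it had no value.

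T16G1.7 had the lowest heated ratios of the cluster. Its ratio was 2.07 at 0 h, -1.43 at 2 h, -1.23 at 4 h, -1.14 at 6 h, -2.32 at 8 h, -3.08 at 10 h and -2.59 at 12 h. The heated values thus formed a first level at 2 to 6 h and a lower one at 8 to 12 h, with no overlap between them. The difference from 0 h was -3.51 at 2 h, the 7th lowest of 15461 features, and -5.15 at 10 h, the 6th lowest of 15655. If the logs are of base 2, these are ratios 11.4 and 35.5 times lower than at 0 h.

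T16G1.6, the next gene along, had a smaller early difference and little change after 6 h. Its ratio was 2.04 at 0 h, -0.43 at 2 h, -0.38 at 4 h, -1.13 at 6 h, -1.17 at 8 h, -1.44 at 10 h and -1.49 at 12 h. The heated values spanned 1.11, the narrowest span of the 3 fully measured members. Its difference from 0 h was lowest at 12 h, at -3.53, or 11.6 times lower if the base is 2.

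T16G1.5 had blank cells at 2, 4 and 8 h, for a reason that no source used here gives. Its ratio was 1.84 at 0 h, -0.67 at 6 h, -1.51 at 10 h and -1.66 at 12 h. Whether it was already low at 2 h is therefore unknown. Its difference from 0 h was -2.50 at 6 h, -3.35 at 10 h and -3.49 at 12 h. Those of T16G1.6, its neighbour, were close to these at 10 h (-3.49) and 12 h (-3.53).

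T16G1.4, at the far end of the row, had the smallest early difference of the 3 fully measured members. Its heated values had the widest span, 2.42. Its ratio was 1.85 at 0 h, 0.00 at 2 h, 0.02 at 4 h, -1.10 at 6 h, -1.07 at 8 h, -2.40 at 10 h and -1.38 at 12 h. At 2 and 4 h it was at the centre of the array, well below its own 0 h ratio, and it was in the lower tail from 6 h on. The 2 and 4 h values were close to each other, as were those of 6 and 8 h, and the 10 h value lay 1.02 below the 12 h value. The difference from 0 h was -1.84 at 2 h and -4.25 at 10 h. An alternative chosen after seeing the data took off the median change of the spots around it on the array. The successive steps from 2 to 10 h were then -0.13, -0.31, -0.73 and -1.22, so the 6 and 8 h values were no longer close.

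The size of the difference can be set side by side at each time. At 2 h the 3 members with a value were lower than at 0 h by at least 1 log2 unit, as were 6.88% of all features. The share of all features past that size was 8.76% at 4 h, 9.24% at 6 h, 9.64% at 8 h, 11.3% at 10 h and 12.2% at 12 h, and every member with a value was past it each time. With 2 log2 units as the size, T16G1.7 and T16G1.6 were past it at 2 h, against 0.996% of all features, and T16G1.4 was not. At 4 h the same 2 genes were past it and T16G1.4 was not, against 1.45% of all features. From 6 h on all measured members were past it, against 1.87% at 6 h, 2.06% at 8 h, 2.83% at 10 h and 2.74% at 12 h.

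At 2, 4 and 8 h the order of change in the 3 members with a value was T16G1.7 lowest, then T16G1.6, then T16G1.4. At 10 h T16G1.4 (-4.25) was lower than T16G1.6 (-3.49) and T16G1.5 (-3.35). At 6 h T16G1.7 (-3.21) and T16G1.6 (-3.18) were nearly level. Of 27 differences between 2 members at the same time, 18 were larger than the median difference between probes of one gene, and 1 was beyond its 95th percentile. That one was T16G1.7 against T16G1.5 at 10 h, a difference of -1.80. All but that one were thus within the 95th percentile. Each time was compared singly, so this does not show whether the order within the cluster exceeds the spread between probes of a single gene. T16G1.7 had the lowest change at all 6 heated times, but at 3 of 6 once the change of the spots around each member on the array was taken off. Less those spots, an alternative chosen after seeing the data, the 4 h change was -1.69 for T16G1.7, -2.75 for T16G1.6 and -2.21 for T16G1.4. At 6 h it was -2.50, -2.98 and -2.52, and at 10 h -3.85, -2.63 and -4.47, for the same genes.

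At the 3 heated times that all 4 genes share, 6, 10 and 12 h, the mean difference from 0 h was -4.34 for T16G1.7, -3.40 for T16G1.6, -3.12 for T16G1.5 and -3.48 for T16G1.4. The values of T16G1.6 (-3.53 to -3.18), T16G1.5 (-3.49 to -2.50) and T16G1.4 (-4.25 to -2.94) overlapped. Those of T16G1.7 (-5.15 to -3.21) overlapped with each of the others as well.

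In timing, the share of the lowest change that had been reached at 2 h was 68.1% for T16G1.7, 70.2% for T16G1.6 and 43.4% for T16G1.4. As a share of the 12 h change it was 75.1%, 70.2% and 57.1%, so the gap of T16G1.4 to T16G1.6 was smaller. The lower figure for T16G1.4 rests on its single 10 h value. The lowest change came at 10 h for T16G1.7 and T16G1.4. For T16G1.6 it came at 12 h (-3.53), close to the 10 h value (-3.49). It moved to 10 h with quantile normalization or equal median absolute deviation, and to 8 h (-3.58) less the spots around it. Between 2 and 4 h the 3 genes moved by 0.21, 0.06 and 0.01, all well inside the middle 90% of features, which ran from -0.84 to 0.79.

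Between 4 and 6 h the step was 0.09 for T16G1.7, -0.76 for T16G1.6 and -1.11 for T16G1.4. The middle 90% of features ran from -0.82 to 0.81 there, so T16G1.4 alone was outside. Between 6 and 8 h the step was -1.18 for T16G1.7, below the 5th percentile of -0.74, while T16G1.6 and T16G1.4 moved by -0.04 and 0.03. Less the spots around each member, the 4 to 6 h steps were -0.82, -0.24 and -0.31 for T16G1.7, T16G1.6 and T16G1.4, and the 6 to 8 h steps were -1.17, -0.59 and -0.73. The later timing of the second drop in T16G1.7 is therefore not kept under that setting. Between 8 and 10 h the step was -0.76 for T16G1.7, -0.27 for T16G1.6 and -1.34 for T16G1.4. The last step, from 10 to 12 h, was upward for T16G1.7 (0.48) and T16G1.4 (1.02), and it was -0.04 for T16G1.6 and -0.15 for T16G1.5. That of T16G1.4 was above the 95th percentile of 0.87. Each step rests on 1 array at either end.

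**Figure D2:**
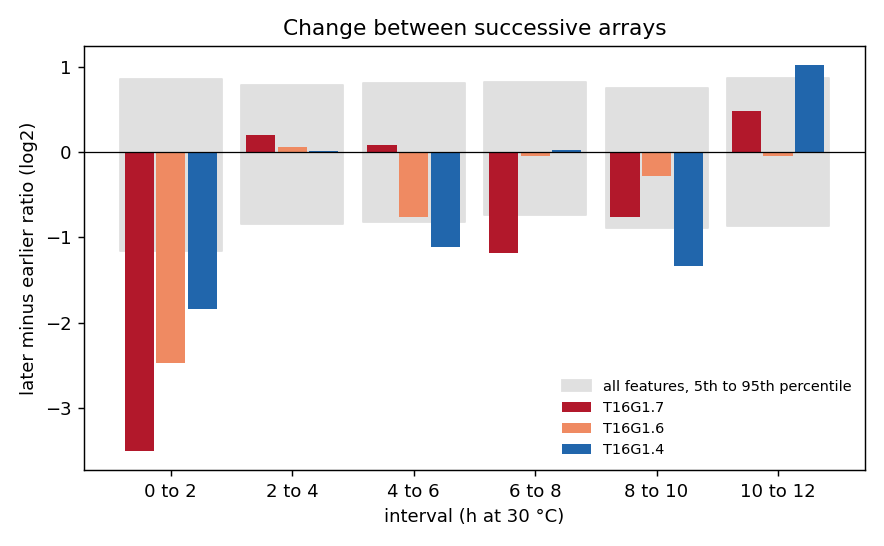
Difference between successive arrays in log2 units (vertical axis) for each interval of the course (horizontal axis) in the 3 genes measured on all arrays, with the 5th to 95th percentile of all features shaded. The bars of 0 to 2 h are the longest of each gene, at -3.51, -2.48 and -1.84, and later bars below the shading are those of T16G1.4 at 4 to 6 h and 8 to 10 h and of T16G1.7 at 6 to 8 h. The bar of T16G1.4 at 10 to 12 h rises above the shading.

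The later part of the course was lower than the earlier part in each gene. The mean difference from 0 h at 8 to 12 h was -4.74 for T16G1.7, against -3.34 at 2 to 6 h. For T16G1.6 the means were -3.41 at 8 to 12 h and -2.69 at 2 to 6 h. For T16G1.4 they were -3.47 at 8 to 12 h and -2.21 at 2 to 6 h. The late mean was below the early one by 0.5 log2 units or more in all 3, as in 8.42% of all features, and by 1 log2 unit or more in T16G1.7 and T16G1.4, as in 1.47%. Less the spots around it, the early and late values of T16G1.6 overlapped. They were -2.39, -2.75 and -2.98 at 2, 4 and 6 h, and -3.58, -2.63 and -3.01 at 8, 10 and 12 h.

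Fitted values across all 13369 features put the same data on one scale (limma, moderated SE). In the fit of heated against baseline, the 1 baseline array leaves no residual. The SE there comes from the spread of the 6 heated arrays, each a different time. It thus holds the course over time and no measured error of the 0 h array. For the straight lines below, the SE comes from the spread of the arrays about the line. Against the 1 baseline array, the mean of the 6 heated ones was -4.04 (SE 0.68) for T16G1.7, -3.05 (SE 0.44) for T16G1.6 and -2.84 (SE 0.76) for T16G1.4. A value of -1 or lower was found for 6.94% of the features. With features allowed that had at least 3 heated arrays, a choice made after seeing the data, T16G1.5 had -3.11 (SE 0.46, 3 heated arrays). Its heated arrays were those of 6, 10 and 12 h, so this value is not comparable with the means over 2 to 12 h. At those 3 times T16G1.6 had a mean of -3.40 and T16G1.4 one of -3.48. Among the 13369 features measured on all arrays, the difference of the heated mean from 0 h was the lowest for T16G1.7. Those of T16G1.6 and T16G1.4 were the 26th and 37th lowest. Among the 16155 features of the wider set they were the 2nd, 37th and 53rd lowest.

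A straight line over 0 to 12 h gave a fitted change of -3.94 (SE 0.87) for T16G1.7, -2.87 (SE 0.65) for T16G1.6 and -3.34 (SE 0.61) for T16G1.4, where 8.59% of all features had -1 or lower. The 0 h array carries much of this. Without it the change over 12 h was -2.15, -1.46 and -2.43 for the same genes. The same line over its own span, 2 to 12 h, gave a change of -1.79 (SE 0.47) for T16G1.7, -1.22 (SE 0.28) for T16G1.6 and -2.02 (SE 0.52) for T16G1.4. A change of -1 or lower over that span was found for 5.48% of all features. T16G1.4 and T16G1.7 differed here by less than either SE, and without the 2 h array their order turned, to -1.64 for T16G1.4 and -1.87 for T16G1.7.

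The profiles of the members were alike over the arrays. Pearson's r over 7 arrays was 0.96 between T16G1.7 and T16G1.6, 0.93 between T16G1.7 and T16G1.4, and 0.939 between T16G1.6 and T16G1.4. These values share the high 0 h array. Over the 6 heated arrays alone r was 0.769, 0.821 and 0.914 for the same pairs, so T16G1.6 and T16G1.4 were the most alike there. They also share their arrays, and their spots lie next to each other, as described further on. They are given as a description.

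The genes on either side of the cluster, as far as they were measured, were not 1 log2 unit or more below 0 h on the heated mean. Among the 10 genes on each side in the WBcel235 order, 3 had a named probe, T16G1.2, T16G1.3 and T16G1.9. T16G1.9 was the one measured on all 7 arrays. The 2 others are named after their values were seen, as all that the window holds. T16G1.9 had ratios from -0.18 to 0.64 on the heated arrays, against -0.16 at 0 h, with a mean heated difference of 0.26.

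T16G1.2 lies directly before T16G1.7, and the bounds of the 2 genes overlap in that table. Its ratio was -0.21 at 0 h, 0.31 at 2 h, -0.85 at 6 h, 0.09 at 8 h, 0.72 at 10 h and 3.38 at 12 h, with none at 4 h. It was above its 0 h ratio on 4 of 5 heated arrays, and the 12 h value stands far from the others. T16G1.3, directly after T16G1.4, had a value on the 8 h array alone, at 1.003. With 10 protein-coding genes on each side, a window chosen after seeing the data, ttbk-7 and hrg-9 were added, with mean heated differences of -0.97 and 0.15.

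**Figure D3:**
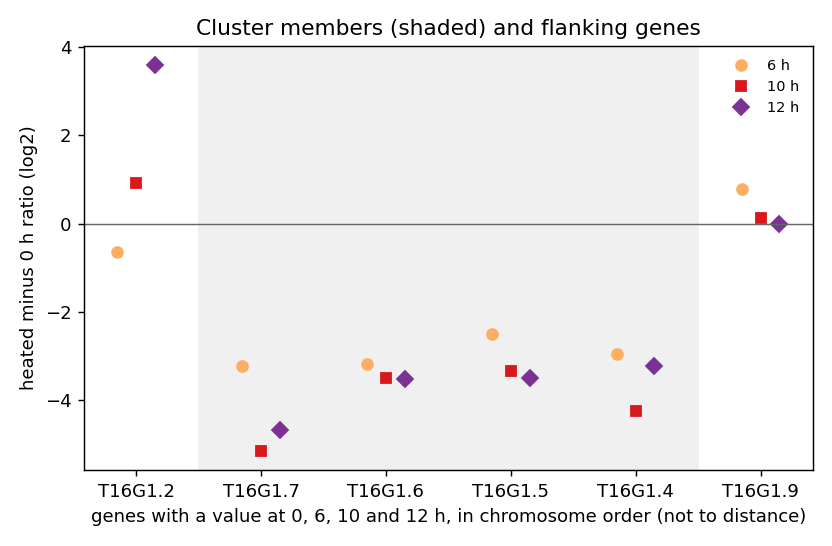
Heated minus 0 h log2 ratio (vertical axis) at 6, 10 and 12 h for the genes of the row with values at those times, in chromosome order and not to distance (horizontal axis), members shaded. All 12 values of the members lie at -2.50 or lower, while those of T16G1.2 and T16G1.9 lie between -0.64 and 3.59.

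Other genes of the same predicted family were looked at through a list of 12, put together from general knowledge and not checked against protein sequences here. It includes T16G1.3, and 10 of the 12 had a named probe. The 4 measured on all 7 arrays had mean heated differences of -0.94 (E02C12.6), -0.20 (E02C12.12), -0.02 (F59B1.8) and -0.22 (H37A05.2). Their median was -0.21, beside 0.05 over all features. A mean difference of -1 or lower was found in 0 of 4, beside 6.94% of all features. On all 6 heated arrays 2 of the 4, E02C12.6 and H37A05.2, were below 0 h, beside 21.4% of all features. With 4 genes, nothing is read from these counts. Among those with blanks, named after their values were seen, C29F7.2 was below 0 h on 5 of 5 heated arrays (mean -0.61). E02C12.10 had 2 heated values, 0.13 above 0 h at 2 h and with a change of -3.03 at 4 h. E02C12.6 was the nearest to the cluster in course, with ratios between -0.28 and -0.04 on the 6 heated arrays, against 0.82 at 0 h. Its difference of about 1 log2 unit was in place at 2 h and did not grow.

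The named genes most like the cluster were sought by Pearson's r, over 7 arrays, with the mean of T16G1.7, T16G1.6 and T16G1.4. Of 1041 named genes with an SD of 0.5 or more over the arrays, 39 had r of 0.95 or more, which is 3.75%, and the median r was 0.32. The highest were F17C11.12 and ltah-1.2 (0.994 each), F14B8.6 (0.993), M04C3.1 (0.992) and T21C9.6 (0.986). ltah-1.2 had the largest differences of the 5, -2.86 at 2 h and -4.76 at 12 h. T16G1.4, the least changed of the 3 members at these times, had -1.84 and -3.23. F17C11.12 had -1.95 at 2 h and -2.80 at 12 h, F14B8.6 had -1.92 and -3.07 at these times, T21C9.6 had -1.54 and -2.55, and M04C3.1 had -0.95 and -1.56.

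Member by member, the nearest genes differed. For T16G1.7 they were F17C11.12 (r = 0.98) and K02E2.1 (0.98), with r of 0.891 and 0.966 over the heated arrays alone. For T16G1.6 they were F17C11.12 (0.994) and ZC328.3 (0.988), with 0.955 and 0.901 over the heated arrays. For T16G1.4 they were C25F9.4 (0.995) and K07G5.5 (0.99), with 0.986 and 0.977 over the heated arrays. C25F9.4 followed a course like that of T16G1.4. Its ratios were 1.78 at 0 h, -0.08 at 2 h, 0.03 at 4 h, -1.08 at 6 h, -1.10 at 8 h, -2.26 at 10 h and -1.01 at 12 h. These are likenesses over arrays that all genes share, and those over 7 arrays also hold the high 0 h ratio.

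Position on the array, and with it the 0 h level of nearby spots, moved with part of the result. Read as block, row and column, the probe identifiers put T16G1.6 and T16G1.4 side by side in print block 2, and T16G1.7 and T16G1.5 side by side in print block 4. Around T16G1.7, 7 other spots had a mean heated difference with a median of -1.12 and a range of -3.14 to -0.15, and 4 of them were at -1 or lower. Around T16G1.5, 6 spots had a median of -1.10, and 4 were at -1 or lower. Of these 6 spots, 4 also lie next to T16G1.7, and 3 of them are at -1 or lower. Around T16G1.6 and T16G1.4 the medians were 0.24 and 0.33, with 0 of 6 and 1 of 6 spots at -1 or lower. Counted once each, 6 of the 18 spots around the members were at -1 or lower, beside 8.37% of all 16420 spots with a 0 h value and at least 3 heated values. At 0 h the spots around T16G1.7 and T16G1.5 had median ratios of 0.49 and 0.77, against 0.07 and -0.18 around T16G1.6 and T16G1.4. Every difference subtracts the same 0 h array, and the part of that level was not tested.

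Each member was lower than the median of the spots around it at every heated time at which it had a value, and lower in its mean than each of those spots. With the median change of those spots taken off, the difference from 0 h was -1.69 for T16G1.7 at 4 h, and for T16G1.5 it was -1.88 at 10 h and -2.03 at 12 h. The difference of the heated mean from 0 h was about as low after centring within print blocks, at -3.91 for T16G1.7, -3.08 for T16G1.6 and -2.87 for T16G1.4. The part of position in these 4 genes was not tested further.

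**Figure D4:**
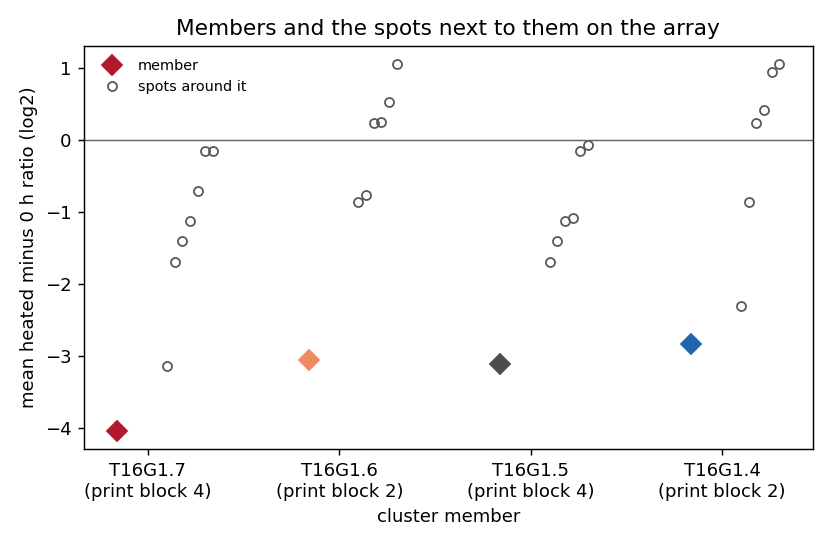
Mean heated minus 0 h log2 ratio (vertical axis) of each member (diamond) and of the spots next to it on the array (open circles), by member and print block (horizontal axis), the other member next to it left out. The mean of T16G1.5 is over 6, 10 and 12 h alone, and those of the other members are over all heated times. Each diamond, between -4.04 and -2.84, lies below all circles of its column, and the circles of block 4 have medians of -1.12 and -1.10 against 0.24 and 0.33 in block 2.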

How the data were processed

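Worm RNA at 7 times was set against a common reference on two-colour arrays. The deposited table holds 1 value per probe and array, taken as a log2 ratio from its range (deposited values stop at -5 and 5). For scanner, background correction, normalization, log base and direction no source used here gives an account. Spot intensities were not analysed here. Precision is limited by having 7 arrays.

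Of 19200 probes, the platform annotation pairs 7900 with 1 gene, 0 with several, and leaves 11300 unnamed here. Of these, 7872 took current names from the WBcel235 table by gene number. No build is stated for the probes, so that table served for names and gene order alone. Each array was centred on its median over probes, and probes of one gene were averaged. Linear models were fitted on features measured on every array of a comparison (limma 3.58.1 lmFit and eBayes, R 4.3.3), and were tested on simulated data. Descriptions used Python 3.11.15. The 4 members and all lists were chosen with earlier results of these data known, so no p-value is given for them. Named genes are the members, the 2 HSP70 genes for direction, the flanking and related genes measured on all arrays, the 5 genes most like the members' mean and the 2 most like each member.

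Protein and probe sequences were not used here, so relatives came from a written list. Alternatives were no centring, quantile normalization, equal median absolute deviation, centring within the 32 print blocks, values at the limits set to missing, single probes, leaving out each array, other sets of heated arrays, a log time scale, another window and another measure of likeness.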

Additional observations from a re-analysis of the deposited data

How the results depend on the processing

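Members are single probes on single arrays, so these values show the effect of settings and not an error. Over 294 recomputed values of the 4 genes, 272 moved by less than the spread used. That spread was the residual SD for fitted values, the SD of 0.615 of 1 probe among probes of a gene for differences, and that SD as a percent of the lowest change for the shares reached at 2 h. Of the rest, 22 moved by more and 0 changed sign, apart from turning the ratio round. With the sign turned, 0 in place of 4 members were below 0 h. Some alternatives could not move, so the count of 272 is no measure of stability. With 1 probe per member, single probes repeat the main values. Allowing features with at least 3 heated arrays repeats them for the fully measured members, and leaving out 6 h keeps the slope over 0 to 12 h. For heated against baseline, the residual SD also holds the course over the heated times. Leaving out each array gave heated against baseline from -4.20 to -3.82 for T16G1.7, -3.18 to -2.96 for T16G1.6 and -3.04 to -2.55 for T16G1.4. The trend over 0 to 12 h then ran from -4.86 to -2.15, -3.50 to -1.46 and -4.38 to -2.43 for the same genes, and the trend over 2 to 12 h from -1.87 to -1.44, -1.26 to -1.01 and -2.36 to -1.53. The values -2.15, -1.46 and -2.43 came from leaving out 0 h, and are the 2 to 12 h slope carried over 12 h. With quantile normalization T16G1.6 had -2.54 against the baseline and -0.99 over 2 to 12 h, and the 12 h difference was -3.87 for T16G1.7, -2.86 for T16G1.6, -2.81 for T16G1.5 and -2.59 for T16G1.4, whose 10 h difference was -3.63. Less the median of the spots around it, an alternative chosen after seeing the data, T16G1.7 had -2.60, -1.69, -2.50, -3.67, -3.85 and -3.50 from 2 to 12 h, T16G1.6 had -2.63 at 10 h, and T16G1.5 had -1.74, -1.88 and -2.03 at 6, 10 and 12 h. The cause of these shifts was not tested. The 5 genes most like the cluster shared 0 with those by Spearman's rho, 1 with those over the 6 heated arrays alone (added after seeing the data) and 4 with those after quantile normalization. The wider window of protein-coding genes held 5 named genes in place of 3. No paired analysis was possible because no time was sampled more than once. Heated against baseline needs the 0 h array, which was therefore always kept there, and the stricter blastp threshold was not run because no protein table was used.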
